A study of Mus musculus with 9 samples.

Results

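The genes described here encode splicing factors and other RNA-binding proteins, and they were followed through 9 single cells dissected from the hypothalamic paraventricular nucleus (PVN) of mice. They were chosen by symbol from the deposited table: the Hnrnp, Srsf, Sf3a, Sf3b, Rbfox, Celf, Elavl, Nova, Mbnl, Ptbp, Khdrbs and Srrm families with Qk, Son, Ddx5 and Ddx17, which gave 71 of the 23530 symbols. Each of the 71 had a single row. All 9 cells carry the same label, single secretagogin+ cell, and are called cell 1 to cell 9 after it. They came from juvenile C57Bl6/N mice of 21 to 28 days, with no treatment or genotype named. The labels tie no cell to an animal. The 9 cells are therefore 1 sample, the cells are not replicates, and the design holds no test between conditions. Differences between cells are given with exact 95% intervals that cover counting error only.

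Pre-mRNA splicing is carried out by the spliceosome, in which the Sf3a and Sf3b proteins help to recognise the branch point of an intron. SR proteins, encoded by the Srsf genes, mostly promote the use of an exon, and heterogeneous nuclear ribonucleoproteins (hnRNPs) often repress it. Neurons add a further layer of regulators, among them Rbfox1 and Rbfox3, Nova1 and Nova2, Ptbp2, Srrm4, the neuronal Hu proteins Elavl2 to Elavl4, Celf3 to Celf6, and the Sam68-like proteins Khdrbs2 and Khdrbs3. The 71 genes were divided on this background into 16 neuron-enriched genes, 9 genes of broad but tissue-regulated expression (Rbfox2, Celf1, Celf2, Mbnl1 to Mbnl3, Ptbp1, Ptbp3 and Qk) and 46 genes called ubiquitous. The ubiquitous class took every gene left over from the other classes, and the breadth of expression of each was not tested.

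The values are whole-number molecule counts, and the cells differed widely in depth. Gene molecules numbered 1021 in cell 1, 3393 in cell 6 and 7160 to 26466 in the other 7 cells. The mitochondrial share of molecules ran from 4.31% in cell 9 to 34.2% in cell 6. Scgn, the gene of the label, had at least 1 molecule in cells 2, 3, 5, 8 and 9 only. Cells 4, 5, 7 and 8 held the most markers of other cell types, and in the other 5 cells no such list exceeded 7 molecules. Cell 4 held 2507 molecules of blood markers and 129 of endothelial markers, cell 5 held 451 of oligodendrocyte markers, cell 7 held 63 of endothelial markers, and cell 8 held 114 of ependymal and tanycyte markers and 29 of astrocyte markers. No microglial marker had a molecule. Neuron markers other than the long non-coding RNA Meg3, none of them among the 71 genes, numbered, from cell 1 to cell 9, 0, 84, 74, 8, 262, 15, 11, 27 and 67 molecules. Cell 9 was the only cell on lane 4, with 614 spike-in molecules against 1962 to 2184 in the others.

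By median, the neuron-enriched genes were longer than the ubiquitous ones and held fewer CpG dinucleotides at their starts. In GENCODE M21 (GRCm38/mm10) the 16 neuron-enriched genes spanned a median of 136 kb from start to end, the 9 broad genes 117 kb and the 46 ubiquitous genes 14.1 kb. The median over the 8938 protein-coding genes with a molecule in any cell was 26.7 kb. Rbfox1 was the longest, at 1526 kb on chromosome 16, and the shortest neuron-enriched gene, Celf3 at 13.9 kb on chromosome 3, was close to the ubiquitous median. The longest ubiquitous gene, Hnrnpr on chromosome 4, spanned 48.5 kb. RefSeq (GRCm38.p6) gave a 300-base window at the start of 62 of the 71 genes. These windows held a median of 20.0 CpG dinucleotides for 14 neuron-enriched genes, 19.0 for 7 broad genes and 28.0 for 41 ubiquitous genes, against 22.0 for 7249 genes with a molecule in any cell and 7.00 for all 27025 genes with a window. Of the 62 windows, 53 had their start site within 1 kb of the gene start in GENCODE, and the others, among them those of Rbfox3, Celf3 and Srrm2, lie farther from it. Over these 53 the median was 23.0 CpG for 10 neuron-enriched genes, 20.5 for 6 broad genes and 28.0 for 37 ubiquitous genes. The motif GGGCGG, searched on both strands, occurred in 6 of 14 neuron-enriched windows (42.9%), in 4 of 7 broad windows (57.1%) and in 28 of 41 ubiquitous windows (68.3%). It occurred in 66.4% of the windows of genes with a molecule and in 35.9% of all windows. A match is a description of these letters and not evidence of a bound site.

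A few start windows are shown as examples of both classes. Srrm4 and Nova1 are neuron-enriched, and Srrm1 and Son are ubiquitous. Srrm4 lies at chr5:116591768-116592067 (minus strand, 25 CpG), Nova1 at chr12:46818718-46819017 (minus strand, 14 CpG), Srrm1 at chr4:135353097-135353396 (minus strand, 40 CpG) and Son at chr16:91647574-91647873 (plus strand, 31 CpG), all in GRCm38.p6. Each sequence runs 5′ to 3′ on the strand of the gene, and capitals mark every CpG.
Srrm4: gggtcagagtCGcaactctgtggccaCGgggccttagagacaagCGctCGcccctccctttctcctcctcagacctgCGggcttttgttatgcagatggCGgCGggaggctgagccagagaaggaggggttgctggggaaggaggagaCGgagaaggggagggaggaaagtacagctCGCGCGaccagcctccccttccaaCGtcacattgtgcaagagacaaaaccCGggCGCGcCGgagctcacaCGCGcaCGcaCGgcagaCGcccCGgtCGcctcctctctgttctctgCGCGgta
Nova1: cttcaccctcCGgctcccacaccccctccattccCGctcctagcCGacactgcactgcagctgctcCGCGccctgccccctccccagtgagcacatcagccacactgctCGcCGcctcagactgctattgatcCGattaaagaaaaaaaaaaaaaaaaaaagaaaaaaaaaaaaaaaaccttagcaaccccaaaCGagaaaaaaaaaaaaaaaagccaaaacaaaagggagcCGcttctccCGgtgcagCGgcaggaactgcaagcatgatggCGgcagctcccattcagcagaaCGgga
Srrm1: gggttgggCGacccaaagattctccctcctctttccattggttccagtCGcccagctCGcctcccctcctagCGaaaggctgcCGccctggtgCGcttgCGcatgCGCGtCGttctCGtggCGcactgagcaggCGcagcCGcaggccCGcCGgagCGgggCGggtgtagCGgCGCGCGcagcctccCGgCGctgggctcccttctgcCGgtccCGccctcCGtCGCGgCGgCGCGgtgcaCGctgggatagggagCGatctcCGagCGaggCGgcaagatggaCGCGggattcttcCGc
Son: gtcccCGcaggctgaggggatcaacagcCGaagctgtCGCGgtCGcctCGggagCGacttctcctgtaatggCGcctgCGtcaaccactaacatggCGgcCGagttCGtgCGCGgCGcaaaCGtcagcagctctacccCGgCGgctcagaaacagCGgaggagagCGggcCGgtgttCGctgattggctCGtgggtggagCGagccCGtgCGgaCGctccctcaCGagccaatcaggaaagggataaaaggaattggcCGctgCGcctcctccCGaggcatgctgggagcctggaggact

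**Figure D1:**
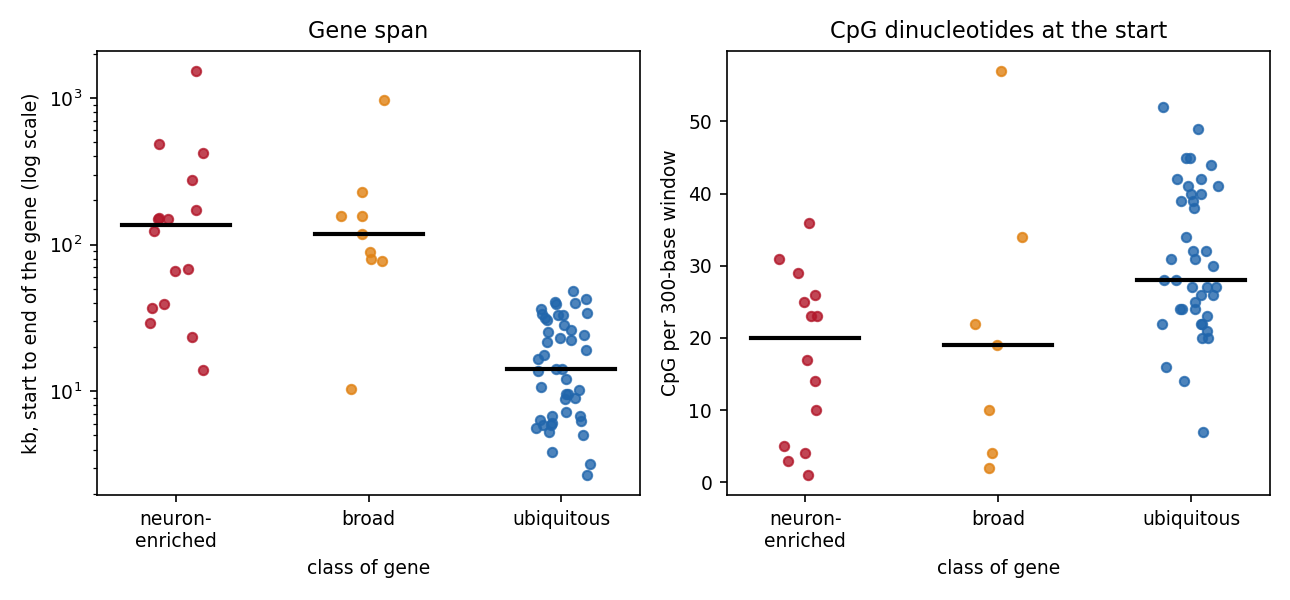
Left, span of each gene in kb on a log axis; right, number of CpG dinucleotides in the 300-base window at its start; each point is 1 gene, the bars are medians, and points are jittered sideways. Neuron-enriched genes sit around a median of 136 kb and ubiquitous genes around 14.1 kb, with CpG medians of 20.0 and 28.0.

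Most of the genes were detected somewhere in the 9 cells. Of the 71, 67 had at least 1 molecule, 36 had a molecule in at least 5 cells (50.7%), 31 were limited to 1 to 4 cells, and none was found in all 9. The same threshold of 5 cells was passed by 7.00% of all 23530 symbols and by 16.9% of the 9747 symbols with a molecule in any cell. The 67 detected genes had a median of 11 molecules over the 9 cells, and all detected symbols a median of 3.00, so the share in 5 cells reads a difference in abundance as well as in spread. By class, 6 of 16 neuron-enriched genes (37.5%), 2 of 9 broad genes (22.2%) and 28 of 46 ubiquitous genes (60.9%) were in at least 5 cells. With at least 2 molecules required, 11 of the 71 genes were in 5 cells, against 2.63% of all symbols. Without cells 4, 5, 7 and 8, 23 genes were in at least 3 of the 5 remaining cells, of which 5 were neuron-enriched, 1 was broad and 17 were ubiquitous, against 5.99% of all symbols.

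**Figure D2:**
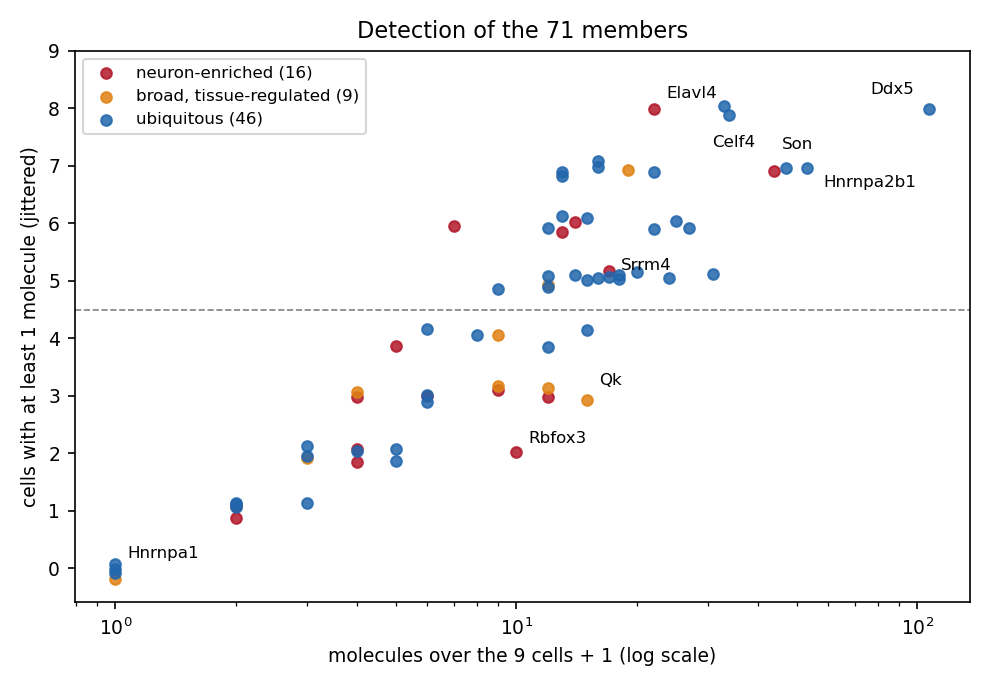
Molecules of each gene over the 9 cells plus 1 (log axis) against the number of cells with at least 1 molecule (jittered); each point is 1 of the 71 genes, coloured by class, and the dashed line separates 5 or more cells from fewer. Ddx5 stands at 106 molecules in 8 cells, and Rbfox3 and Qk lie low for their molecule number, in 2 and 3 cells.

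The 71 genes together took 947 of 91370 gene molecules, or 1.04%. Their share ran from 0.686% in cell 1 (interval 0.276 to 1.41%) and 0.740% in cell 4 (0.595 to 0.910%) to 1.48% in cell 7 (1.21 to 1.79%). The blood markers of cell 4, 3646 molecules when every numbered locus is counted, are part of its total. Without them its share was 1.06% (0.854 to 1.31%), which overlaps the interval of cell 7. Neuron-enriched genes gave 159 of these molecules (16.8%), broad genes 75 (7.92%) and ubiquitous genes 713 (75.3%).

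The neuron-enriched genes had a wider spread over cells than the ubiquitous genes, and so did the broad genes. Taken from cell 1 to cell 9, the summed levels of the neuron-enriched genes were 19.6, 16.7, 18.6, 4.16, 15.9, 67.8, 27.9, 7.59 and 26.8 molecules per 10000 gene molecules. The ubiquitous genes, in the same order and unit, stood at 49.0, 68.9, 94.1, 57.4, 79.0, 61.9, 89.4, 78.2 and 95.8. Cells 4 and 8 were thus lowest for the neuron-enriched genes and cell 6 highest, while the ubiquitous genes kept within a narrower band. Among the 7 cells deeper than cells 1 and 6, the highest and the lowest neuron-enriched level, in cells 7 and 4, differed 6.72-fold (interval 2.45 to 22.9). The corresponding ratio for the ubiquitous genes, between cells 9 and 4, was 1.67 (interval 1.19 to 2.35). With the blood markers left out of the total of cell 4, a setting chosen after seeing the data, these ratios became 4.68 (1.70 to 16) and 1.16 (0.828 to 1.64). Cell 4 then stood at 5.97 for the neuron-enriched genes, still the lowest of the 9 cells, and at 82.4 for the ubiquitous genes, above cell 2 at 68.9. Both ratios set the extremes of 7 cells against each other, and the neuron-enriched one rests on 20 and 5 molecules. Over the same 7 cells the broad genes ran from 2.80 in cell 3 to 30.7 in cell 7, on 3 and 22 molecules. A wide spread was thus not limited to the neuron-enriched genes. The neuron-enriched and broad classes hold 159 and 75 molecules, against 713 in the ubiquitous class. The part of these lower counts in the spread was not tested.

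**Figure D3:**
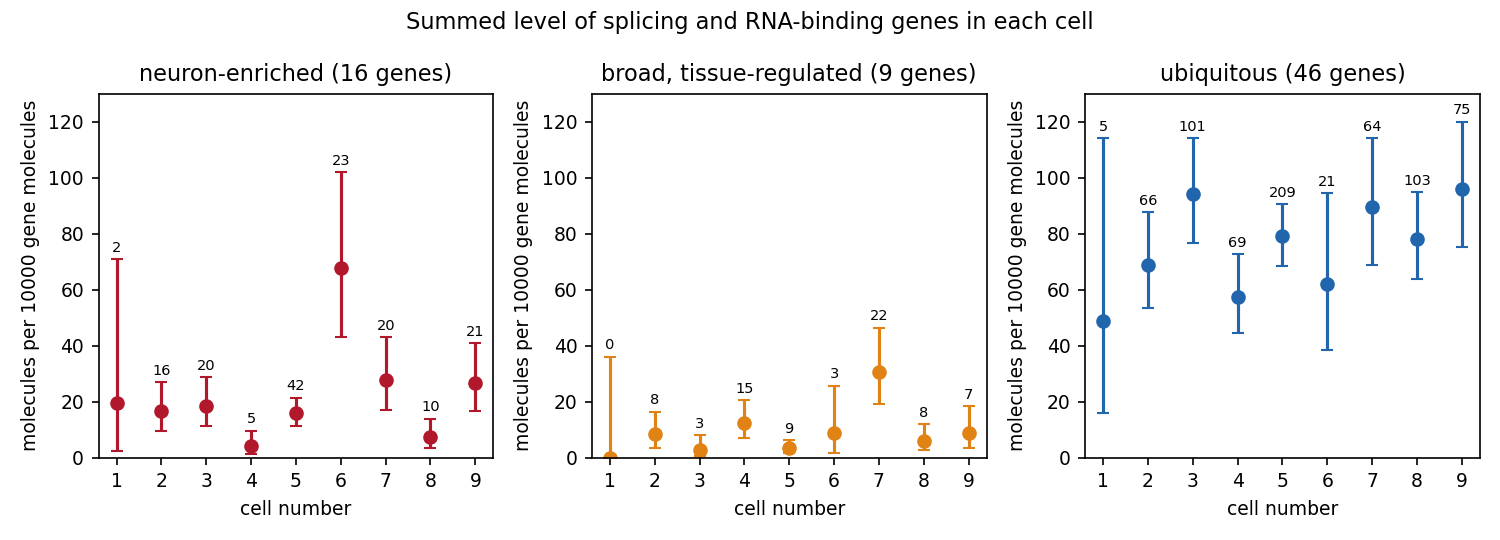
Summed molecules per 10000 gene molecules in each cell for the neuron-enriched, broad and ubiquitous genes; points are cells, bars are exact 95% Poisson intervals, and the numbers above them are molecules. Cell 6 stands at 67.8 in the neuron-enriched panel and cell 7 at 30.7 in the broad panel, while the ubiquitous panel runs between 49.0 and 95.8.

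As a share of neuron-enriched plus ubiquitous molecules, the neuron-enriched genes took 6.76% in cell 4 (interval 2.23 to 15.1%) and 8.85% in cell 8 (4.33 to 15.7%). Cells 1, 2, 3, 5, 7 and 9 lay between 16.5 and 28.6%. In cell 6 it reached 52.3% (36.7 to 67.5%), an interval that overlaps only that of cell 1, which has 7 molecules in all. Cells 4 and 8 are among the 4 cells with the most markers of other cell types, and their neuron markers without Meg3 stood at 6.65 and 20.5 molecules per 10000. Cell 5, also among these 4 cells, had 99.0 per 10000 of these neuron markers and a neuron-enriched share of 16.7% (12.3 to 21.9%). Cell 7, with 15.4 per 10000 of these neuron markers, had a neuron-enriched share of 23.8% (15.2 to 34.3%), an interval that overlaps that of cell 8. The intervals of cells 4 and 8 both overlap those of cells 1, 2, 3, 5 and 9. The part of these other cell types in the share was not tested.

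Srrm4, also called nSR100, promotes the inclusion of very short exons in neurons. Of its 16 molecules, 11 were found in cell 6, a further 2 in cell 3, and single ones in cells 5, 7 and 8. In cell 6 this was 32.4 molecules per 10000 (interval 16.2 to 58.0), an interval that met that of no other cell but cell 1, where a count of 0 allows up to 29.4. The gene lies on chromosome 5 at 116439275 to 116591817 (minus strand), and its exons overlap those of Srrm4os on the opposite strand. No source used here states whether reads were counted by strand, and without it the transcripts of both genes cannot be told apart. Without Srrm4, the neuron-enriched share of cell 6 was 36.4% (20.4 to 54.9%), and its interval then overlapped those of cells 1, 2, 3, 5, 7 and 9. Cell 6 also had the highest mitochondrial share, and its depth was low.

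Srrm1 and Srrm2 were also high relative to depth in the shallow cells, at 39.2 molecules per 10000 together in cell 1 against a median of 7.31 over the 9 cells. Srrm1 and Srrm2 encode large proteins rich in serine and arginine that lie in the splicing machinery and nuclear speckles. Srrm1 counted 3, 5, 7, 0, 4, 5, 2, 4 and 2 molecules from cell 1 to cell 9. Srrm2 in the same order counted 1, 2, 3, 0, 0, 6, 4, 4 and 1, with 0 in cell 5, the deepest cell. Exons of Srrm2 overlap those of Elob, listed in the table under its older symbol Tceb2, on the opposite strand. Tceb2 had 37 molecules, of which 16 were in cell 5, and the transcripts of this pair cannot be told apart without strand. The 4 Srrm genes together reached 64.8 molecules per 10000 in cell 6 and were not found in cell 4. Srrm3, the second neuronal member, had 1 molecule, in cell 9. Srrm1 with Srrm2 outnumbered Srrm3 with Srrm4 in 7 cells, and the pairs were equal in cell 6, at 11 molecules each.

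The Celf proteins bind GU-rich RNA and regulate splicing and the stability of mRNA. Celf4, on chromosome 18 at 25477632 to 25754157 (minus strand), held 43 of the 159 neuron-enriched molecules (27.0%). Its counts were 1, 4, 4, 0, 17, 0, 4, 2 and 11 from cell 1 to cell 9, with the 0 values in cells 4 and 6. Relative to depth it was highest in cell 9, at 14.1 molecules per 10000 (interval 7.02 to 25.1), and cell 4 was limited to 2.50. Celf6 was detected in 6 cells with 13 molecules, of which 4 were in cell 2. Celf5 was limited to cells 3, 5 and 6, with 8 molecules, and Celf3 to cells 3 and 9, with 3. Of the broad paralogs, Celf2 had 8 molecules in 4 cells, as many as Celf5 and more than Celf3. Celf1 had 2 in 2 cells. Celf3 to Celf6 together outnumbered Celf1 and Celf2 in 7 of 9 cells, with cell 4 equal at 1 each and cell 6 the other way, at 2 and 3 molecules. These are sums of 4 genes against 2, and Celf4 alone gave 43 of the 67 molecules of Celf3 to Celf6.

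The Elavl genes encode the Hu proteins, which bind AU-rich and U-rich RNA and stabilise many mRNAs. Elavl4, or HuD, was the neuron-enriched gene found in the most cells, 8 of 9. From cell 1 to cell 9 it counted 0, 1, 2, 1, 5, 3, 7, 1 and 1 molecules. Elavl2 had 12 molecules in 6 cells, of which 4 were in cell 6, and Elavl3 had 11 in 3 cells, of which 5 were in cell 7. Elavl1, the ubiquitous paralog HuR, had 13 molecules in cells 2, 3, 5, 7 and 9, with at most 5 in any. The neuronal Hu genes had at least 1 molecule in every cell and outnumbered Elavl1 in 8 cells, with cell 2 equal at 1 each. In cells 1, 4 and 8 this rests on 1 or 2 molecules. These are sums of 3 genes against 1, and singly Elavl2 with 12 and Elavl3 with 11 molecules did not exceed the 13 of Elavl1, while Elavl4 had 21.

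**Figure D4:**
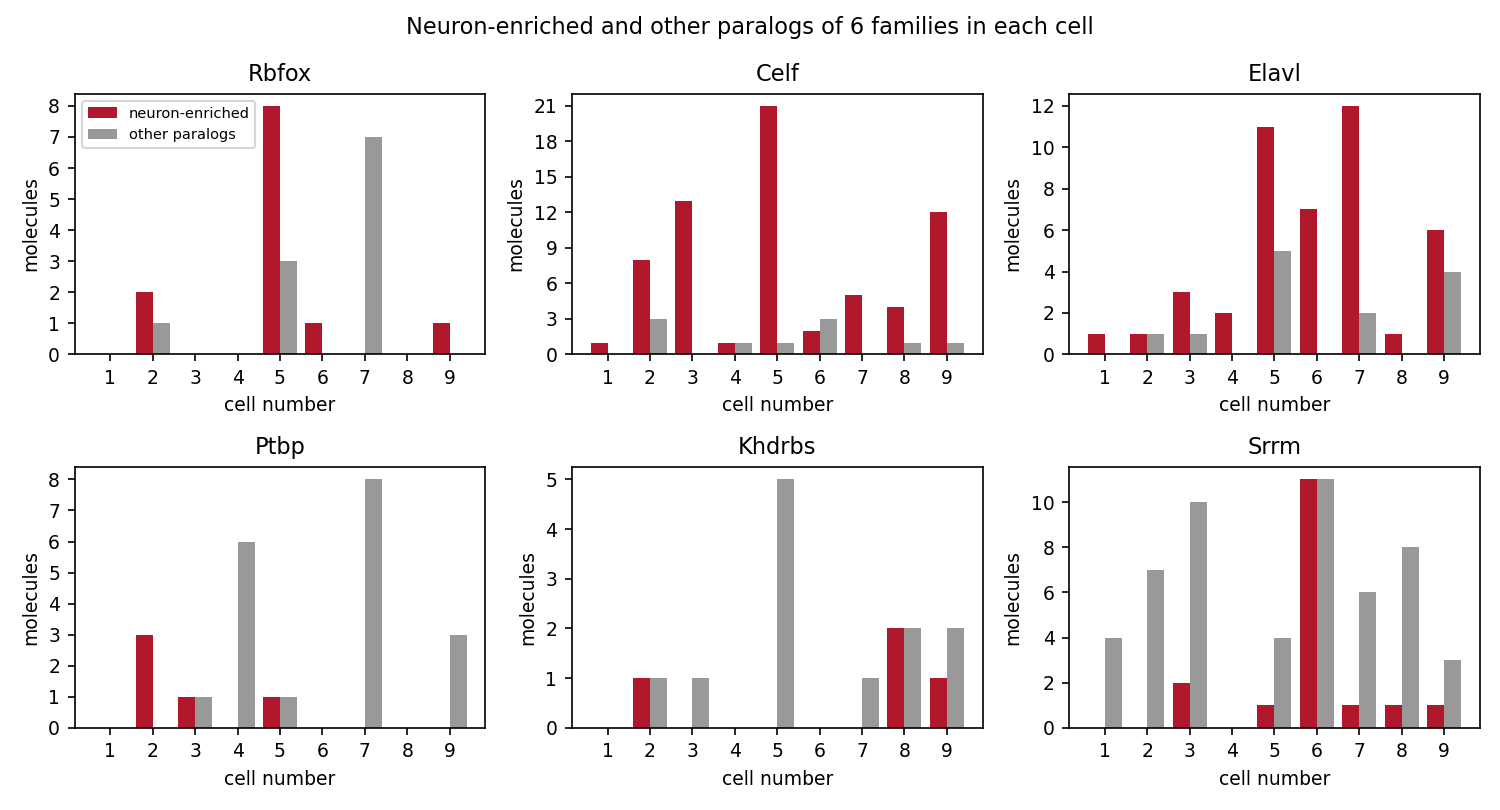
Molecules of neuron-enriched paralogs and of the other paralogs in each cell for 6 gene families; bars are sums of whole-number counts, not divided by depth. The neuron-enriched bars are higher in 8 cells for Elavl (3 genes against 1) and in 7 for Celf (4 against 2), and in none for Khdrbs (2 against 1) and Srrm (2 against 2).

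The Ptbp genes encode polypyrimidine tract-binding proteins, which repress exons. Ptbp1 predominates outside neurons, and Ptbp2 takes its place as neurons differentiate. Ptbp2 was found in cells 2, 3 and 5, with 3, 1 and 1 molecules. Ptbp1 was found in cells 4, 7 and 9, with 5, 2 and 1. No cell thus held both transcripts, and cells 1, 6 and 8 held neither. Cells 4 and 7, with 7 of the 8 Ptbp1 molecules, hold the most endothelial markers, and cells 2, 3 and 5 hold the most neuron-marker molecules without Meg3, although cell 9 exceeds cell 3 per 10000 (85.6 and 69.0). The counts are small: the 3-molecule limit for Ptbp1 was 3.13 per 10000 in cell 2, 2.80 in cell 3 and 1.13 in cell 5, against measured levels of 4.16 in cell 4 (interval 1.35 to 9.70) and 2.79 in cell 7 (0.338 to 10.1). For Ptbp2 the limits in cells 4, 7 and 9 were 2.50, 4.19 and 3.83, against its highest level of 3.13 in cell 2 (0.646 to 9.16). Its absence there thus carries little information. Genes found in so few cells can also miss each other by chance, and a relation to the markers was not tested. The exons of Ptbp1 overlap those of 3 genes on the opposite strand. Ptbp3 had 11 molecules in cells 3, 4, 5, 7 and 9, of which 6 were in cell 7.

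Qk encodes quaking, an RNA-binding protein known for its role in myelination and also present in astrocytes and blood vessels. It was found in cells 4, 7 and 8, with 6, 2 and 6 molecules, and in no other cell. In cell 4 the level was 4.99 molecules per 10000 (interval 1.83 to 10.9) and in cell 8 it was 4.55 (1.67 to 9.91). All 3 cells carry markers of endothelial, ependymal or astrocytic cells. Cell 5, with 451 molecules of oligodendrocyte markers, had no Qk molecule, which allows up to 1.13 per 10000 in the deepest cell. Whether Qk came from the cells that gave the markers was not tested.

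The Rbfox proteins bind the sequence UGCAUG near regulated exons, and Rbfox3 is the NeuN antigen used to stain neurons. Of 9 Rbfox3 molecules, 8 were in cell 5 (3.02 per 10000) and the last in cell 2, while cells 2, 6 and 9 each held 1 of Rbfox1. Rbfox2, the broadly expressed paralog, was found in cells 2, 5 and 7, with 1, 3 and 7 molecules. Rbfox2 in cell 7 stood at 9.78 molecules per 10000, and the next cell at 1.13. Cells 1, 3, 4 and 8 held no Rbfox molecule, so cell 3, with 74 molecules of neuron markers, showed none of the 3 genes. In cell 3 a count of 0 allows up to 2.80 per 10000, close to the level of Rbfox3 in cell 5.

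Among the remaining neuron-enriched genes, the counts stayed at or below 2 molecules in any cell. Nova1 and Nova2, whose proteins bind YCAY repeats, had 4 molecules in 4 cells and 6 molecules in 6 cells, always 1 at a time. Cells 4, 6, 7 and 8 held both Nova genes and cells 2 and 3 held Nova2 alone, while cells 1, 5 and 9 held neither. Khdrbs3 was found in cells 8 and 9, with 2 and 1 molecules, and Khdrbs2 in cell 2, with 1. Khdrbs1, the ubiquitous paralog Sam68, had 12 molecules in 6 cells and was never outnumbered by the neuronal pair. Of the muscleblind genes, which regulate splicing and localisation of RNA, Mbnl2 had 18 molecules in 7 cells and at most 4 in any, Mbnl1 had 3 and Mbnl3 had none.

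**Figure D5:**
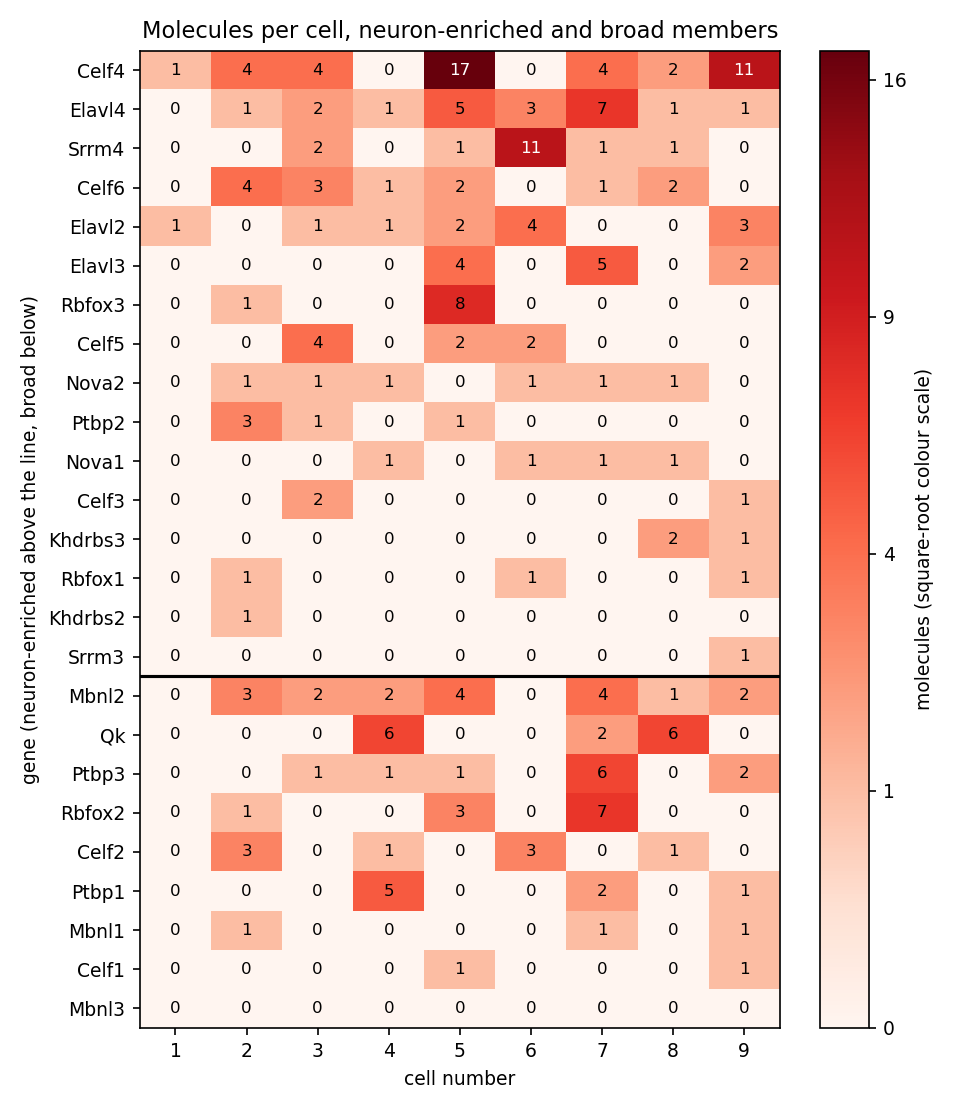
Molecules of the 16 neuron-enriched genes (above the line) and the 9 broad genes (below it) in each cell, printed in each square and coloured on a square-root scale. Celf4 in cells 5 and 9 and Srrm4 in cell 6 have the highest counts, and Qk is limited to cells 4, 7 and 8.

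The broad genes as a class were highest in cell 7, at 30.7 molecules per 10000 (interval 19.3 to 46.5), followed by cell 4 at 12.5 (6.98 to 20.6), or 17.9 (10.0 to 29.5) without its blood markers. In cell 3 they stood at 2.80 (0.577 to 8.17) and in cell 5 at 3.40 (1.55 to 6.46). Rbfox2 and Ptbp3 gave 13 of the 22 molecules in cell 7. Both cells 7 and 4 carry endothelial markers, and the part of these in the level was not tested.

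Of the ubiquitous genes, the RNA helicase gene Ddx5 had the most molecules, 106 in 8 cells. The counts were 0, 8, 15, 7, 35, 1, 18, 10 and 12 from cell 1 to cell 9. The level was highest in cell 7, at 25.1 molecules per 10000 (interval 14.9 to 39.7), and lowest among the deeper cells in cell 4, at 5.82 (2.34 to 12), and these intervals do not overlap. Without its blood markers cell 4 stood at 8.36 (3.36 to 17.2), and its interval then overlapped that of cell 7. Cell 8, which held no blood marker, was then the lowest of the deeper cells at 7.59 (3.64 to 14.0). The interval of cell 8 does not overlap that of cell 7. Its paralog Ddx17 had 17 molecules in 5 cells. Divided by the length of the longest annotated protein-coding transcript, Hnrnpa2b1 at 30.1 and Ddx5 at 29.8 molecules per kb stood next to each other, followed by Srsf5 at 21.0 and Celf4 at 10.8. Undivided, Ddx5 had 106 molecules against 52 for Hnrnpa2b1, and whether these counts scale with transcript length was not tested. Exons of Ddx5 overlap a microRNA gene on the same strand.

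Son, a large protein of nuclear speckles, had 46 molecules in 7 cells, with counts of 0, 4, 5, 8, 13, 0, 2, 13 and 1 from cell 1 to cell 9. Donson, whose exons overlap those of Son on the opposite strand, had 0 molecules in the 9 cells. Among the hnRNP genes, 12 of 20 were detected in at least 5 cells. Hnrnpa2b1, which binds and transports RNA, counted 0, 1, 10, 4, 26, 0, 2, 7 and 2 molecules in cells 1 to 9. Of its 52 molecules 26 therefore lay in the deepest cell, and the shallow cells 1 and 6 had none. Hnrnpk, a poly(C)-binding protein, had 30 molecules in cells 3, 4, 5, 8 and 9, of which 11 were in cell 5 and 9 in cell 9. Hnrnpdl had 24 molecules in 6 cells, Hnrnpc had 19 in 5 cells with 10 of them in cell 5, and Hnrnpu had 17 in 5 cells with none in cell 5. The other 15 hnRNP genes had 0 to 15 molecules each, and 7 of them were in at least 5 cells. Hnrnpa1, known as an abundant hnRNP, is listed at 0 in every cell. Near-identical copies in the genome can take reads from a gene of this family, and no source used here says how such reads were counted, which makes this 0 uncertain.

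Of the 11 SR protein genes, 6 were in at least 5 cells and all had at least 2 molecules. Srsf5 was the most widespread, with 0, 3, 3, 4, 11, 1, 2, 4 and 5 molecules in cells 1 to 9. Srsf7 had 23 molecules, with 7 each from cells 2 and 5, but was not found in cells 3 and 9, and Srsf3 had 21 molecules in 6 cells. Srsf2 had 14 molecules in 4 cells and Srsf11 had 14 in 6. The family had a median of 15.2 molecules per 10000 over the cells, a highest level of 18.6 in cell 3, and no molecule in cell 1.

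The branch-point complex was covered unevenly. Sf3b2 had 26 molecules in 6 cells, with 7 in cell 8, Sf3b1 had 16 in 5 cells with 7 in cell 5, and Sf3b5 had 14 in 5 cells. Sf3b1, the subunit that holds the branch-point region, had none in cells 3 and 9, where a count of 0 allows up to 2.80 and 3.83 per 10000. Sf3b3 had 2 molecules, both in cell 7, and Sf3b4 none. In the Sf3a complex Sf3a3 had 4 molecules, Sf3a1 had 2 and Sf3a2 none.

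Further genes of the splicing and RNA-binding machinery outside the families above were set beside them. Of 121 such genes in the table, 45 were detected in at least 5 cells (37.2%), 69 were limited to 1 to 4 cells, and 7 had no molecule. Among 53 genes of small nuclear ribonucleoproteins and the spliceosome, 19 were in at least 5 cells, and Snrpe, a Sm core protein, led with 27 molecules in 7 cells. Snrpd2 had 25 molecules, Rbm8a, of the exon junction complex, had 20 and Snrpd1 had 19. Snrpn, the brain-enriched Sm protein gene, had 1 molecule, in cell 3. Of 35 other splicing regulators, 16 were in at least 5 cells. They were led by Rbm39 with 40 molecules in 8 cells, the cold-inducible Rbm3 with 35, of which 13 were in cell 4, Matr3 with 34, of which 17 were in cell 5, and Rbm25 with 30. Of 33 genes for other mRNA-binding proteins, 10 were in at least 5 cells. G3bp2, a stress granule protein, had 30 molecules, Caprin1 had 23 and Fxr1 had 18. Zfp36l1, which promotes the decay of AU-rich mRNAs, was found in cells 4, 6, 7 and 8, with 6, 2, 9 and 4 molecules. Cells 4, 7 and 8 are also the cells with Qk.

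The number of genes detected in a cell moved with its depth. The number of the 71 genes with a molecule was 5, 39, 40, 35, 46, 19, 36, 42 and 35 from cell 1 to cell 9. As a share of the 71 this was 7.04, 54.9, 56.3, 49.3, 64.8, 26.8, 50.7, 59.2 and 49.3%, against 5.06, 35.8, 35.6, 24.6, 56.7, 11.7, 26.3, 42.2 and 28.9% of the 9747 symbols with a molecule in any cell. At a common depth of 7160 molecules the expected number was 33.7, 34.0, 26.8, 29.9, 36.0, 32.4 and 33.7 in cells 2, 3, 4, 5, 7, 8 and 9. Cell 5, first by the raw number, was thus lower than 5 of the other 6 cells at equal depth. For the neuron-enriched genes alone the expected number at this depth was 2.98 of 16 in cell 4 and 4.55 in cell 8, against 5.37 to 7.61 in the other 5 cells. For the ubiquitous genes it ran from 19.8 of 46 in cell 4 to 25.7 in cell 8. Cell 8 was therefore low for the neuron-enriched genes and highest of the 7 cells for the ubiquitous genes. Without the blood markers of cell 4 its expected numbers were 32.4 of the 71 genes, 4.27 neuron-enriched and 23.4 ubiquitous, and cell 9 was then lowest for the ubiquitous genes at 21.4. Cell 5 was then lowest of the 7 cells for the 71 genes together. Cells 1 and 6 lie below this depth and were left out of these values. No expected number at this depth is given for all symbols, so whether these orders of cells are particular to the 71 genes was not tested.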

How the data were processed

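Single-cell cDNA was made on a Fluidigm C1 chip from papain-dissociated tissue, with spike-in RNAs added at lysis, 21 PCR cycles and Tn5 fragmentation, per the labels' protocols. The submitters' processing notes name mm10 and Bowtie, with no version. The deposited file is a table of whole-number counts per gene, called molecules by its authors, with 24378 gene rows and 92 spike-in rows. How duplicates were collapsed and whether strand was used are not given in the sources used here. Columns were assigned by the cell number in their names, and 0 were left unassigned.

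A level is the number of molecules per 10000 gene molecules in that cell. Counts have exact Poisson intervals and shares exact Clopper-Pearson intervals, at 95%, and a count of 0 allows up to 3 molecules divided by the total of the cell. The labels name no molecular identifiers, so counts may not be independent molecules and intervals cover counting error only. Detection means at least 1 molecule. Expected detection at a common depth uses exact hypergeometric probabilities. Symbols with numbered loci took the largest row in each cell, and 27 rows named by dates were kept. Of the 23530 symbols, 21996 were found in GENCODE M21, and exons of 27 of the 71 genes overlap a gene on the opposite strand. RefSeq windows are the first listed per gene. Transcript length is that of the longest protein-coding transcript of the basic set. Doublets were not called, as there are 9 cells.

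The genes, classes, lists and alternatives were chosen with earlier results of these data known. Named were all neuron-enriched and broad genes, Son, Ddx5, Ddx17, Elavl1, Khdrbs1, Srrm1 and Srrm2, the 5 Hnrnp, 5 Srsf, 2 Sf3a and 3 Sf3b genes with the most molecules, and the top 4 of each further list with Snrpn. Hnrnpa1, Hnrnpr, Sf3b3, Sf3b4, Sf3a2 and Donson were picked for naming once their values were known. Alternatives were other detection limits, thinning, other totals, spike-in scaling, summed loci, other class borders and leaving out cells. The step was tested on simulated data. Scripts ran in Python 3.11.15 (scipy 1.17.1, pandas 2.3.3, numpy 2.4.6; figures with matplotlib 3.10.9).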

Additional observations from a re-analysis of the deposited data

Results flagged for a closer look

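In 36 measures over the 9 cells (5 class values and 31 named genes with at least 9 molecules), 10 had 1 cell whose gap to its nearest neighbour exceeded Dixon's 95% critical value for the range. Chance flags about 1 in 20 groups, although counts with many zeros do not follow the distribution behind that value. The limit of 9 molecules also counts the flagged cell. Outside that cell Rbfox3 had 1 molecule, Rbfox2 had 4, Srrm4 and Ptbp3 had 5 each, and Elavl3 had 6. These genes passed the limit only through the flagged cell, so 10 of 36 cannot be set against 1 in 20. Cell 6 stood apart in the summed level of neuron-enriched genes (67.8 molecules per 10000, next cell 27.9), in the neuron-enriched share (52.3%, next 28.6%) and in Srrm4 (32.4, next 1.86). The level and the share include the 11 Srrm4 molecules of cell 6, so these flags are not independent. Without Srrm4 they were 35.4 per 10000 (next 26.8) and 36.4% (next 28.6%). Cell 7 stood apart in the level of the broad genes (30.7, next 12.5), in Rbfox2 (9.78, next 1.13), Ptbp3 (8.38, next 2.56) and Elavl3 (6.98, next 2.56). Rbfox3 was apart in cell 5 (3.02, next 1.04), Srrm1 in cell 1 (29.4, next 14.7) and Hnrnpk in cell 9 (11.5, next 5.82). The value for Srrm1 in cell 1 rests on 3 molecules. These cells differ in depth. Cell 5 held 451 molecules of oligodendrocyte markers and cell 7 held 63 of endothelial markers, against 3 and 7 of endothelial markers in cells 6 and 9 and none of any such list in cell 1. The part of these markers in the values was not tested.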

How the results depend on the processing

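The counts of genes in at least 5 cells depend on the detection limit and on depth. For all 71 genes the count of 36 became 11 with at least 2 molecules, 5 with at least 3, an expected 1.52 after thinning to 1021 molecules, 13 with at least 7 cells required, and 23 without cells 4, 5, 7 and 8. For the 6 neuron-enriched genes the same settings gave 1, 1, 0.220 and 2 (with 7 cells), and 11 genes were in at least 3 cells. For the 28 ubiquitous genes they gave 9, 4, 1.29, 10 and 17, and for the 45 further genes 13, 5, 0.659 and 13, with 84 in at least 3 cells. Leaving out each cell in turn, with 5 of 8 cells required, gave 23 to 36, 5 to 6, 17 to 28 and 33 to 44 genes for these 4 sets. That change follows in part from the fixed number of cells. The median neuron-enriched level of 18.6 per 10000 was 17.7 to 19.1 without single cells and 9.34 per 1000 spike-in molecules. The ubiquitous level of 78.2 was 73.6 to 78.6 and 35.2, and spike-in scaling changes the unit. The median neuron-enriched share of 19.5% was 18.1 to 20.7% without single cells. It was 16.4 to 21.9% in the 17 alternatives not fixed by construction. Of these, 3 were chosen after seeing the data (per kb of transcript, without Srrm4 and pooled molecules). Leaving out Srrm4 kept 19.5%, as cell 2, the median cell, holds no Srrm4 molecule. All lie within 11.6 to 29.7%, the counting interval of cell 2. Medians without single cells could hardly leave that interval, so this says little about stability. Other totals and summed loci leave this share as it is by construction. Blood markers left out of the total of cell 4, also chosen later, moved the ubiquitous ratio of cells 9 and 4 to 1.16, against 1.67. No paired analysis was possible because the 9 cells form 1 group. Cells 1 and 6 are too shallow for an undetected gene to carry much information.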
